A study of Mus musculus with 15 samples.

Results

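The epidermal differentiation complex is a stretch of mouse chromosome 3 that holds most genes for the proteins of the cornified envelope, the cross-linked shell that replaces the plasma membrane of a dying keratinocyte. The 48 genes described here are its envelope genes and a few neighbours of the same kind, named in a list, with the S100 genes left out. They are 48 of the 36528 genes listed in the deposited files, and each was matched by its NCBI Gene identifier. A total of 47 lie within 1460 kb, from Pglyrp3 to Tchhl1 (chr3:92012477-93471980, GRCm38.p6), and Pglyrp4 lies outside at chr3:90726906-90741517.

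RNA with poly(A) tails was sequenced from nests of basal cell carcinoma taken by laser capture from frozen mouse skin. Every animal carried K14Cre-ER, Ptch1 fl/fl, p53 fl/fl and Lgr5GFP, so the untreated nests have the same alleles as the treated ones, and the keratin 14 promoter drives the recombinase in basal keratinocytes and follicle epithelium. The Hedgehog pathway inhibitor vismodegib, which blocks Smoothened, was given for 28 days to the animals behind 5 libraries. A further 5 came from untreated nests labelled Ki67-positive and 5 from untreated nests labelled Ki67-negative. The vismodegib nests carry no Ki67 label, and ages were not given in the sources used here. Library numbers 1 to 5 follow accession order and pair nothing. No label says which animal a library came from. If several nests of a group came from 1 mouse, the p-values are too small, and part of the spread may be technical. Accessions of the Ki67-negative group form a later block than the rest, and if it was processed apart, that batch and the group cannot be told apart.

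Cornification begins when a keratinocyte leaves the basal layer. Involucrin is laid down early under the membrane, and loricrin, the small proline-rich (Sprr) proteins and the late cornified envelope (Lce) proteins are then joined to it by transglutaminases. Filaggrin and its relatives, which fuse an S100 domain to long repeats, bind keratin filaments and supply the amino acids that hold water in the dead layer. In mouse and human skin the Sprr2 and Lce3 groups are known for their rise after wounding and in inflamed epidermis, and the Lce1 group for its place in normal interfollicular epidermis. Basal cell carcinoma nests are made of basal-type cells, in which most of these genes are low.

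Library depth was 4887381 to 10328822 counts, with 7.96 ± 1.6 M in the vismodegib group, 6.8 ± 1.42 M in the Ki67-positive group and 6.35 ± 0.91 M in the Ki67-negative group (SD, n = 5 each). At this depth 1 count is worth between 0.099 and 0.202 CPM (counts scaled to a library of 1 M), so the levels of the untreated groups often rest on a handful of reads. Of the markers of the labelled nests, Krt5 reached 1786 to 6279 CPM and Krt14 573 to 3002 CPM over the 15 libraries, and basal keratinocytes outside a tumour also express both. The Hedgehog target Ptch1, counted over the whole gene with its floxed part, was at 2973 ± 581 CPM in the Ki67-positive and 3147 ± 682 CPM in the Ki67-negative group and at 551 ± 383 CPM after vismodegib (SD, n = 5 each), where it fell by 2.43 and 2.51 on the log2 scale (adjusted p = 0.00136 and 0.000977, edgeR). Gli1, a factor of the same pathway that is also its target, fell by 2.17 and 2.35 (adjusted p = 0.00253 and 0.00133). Xist exceeded the Y-linked gene Ddx3y in 5 libraries, 3 of them in the vismodegib group. In bulk nests, fewer cells of a type and less RNA per cell cannot be told apart.

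The stretch before the start site is shown for 5 members that stand for the patterns described below: Lor and Flg, which rose, Lce1m, which went from near 0 to a high level, and Sprr2d and Lce3c, from the Sprr2 and Lce3 groups, whose libraries overlapped between treated and untreated nests. Each is 250 bases that end just before the annotated start, 5′ to 3′ on the gene's strand, from RefSeq (GRCm38.p6). Capitals mark TATAAA, the letters of a TATA box, and TGANTCA, the letters bound by AP-1 proteins, read on both strands.
Lor (chr3:92083143-92083392, - strand): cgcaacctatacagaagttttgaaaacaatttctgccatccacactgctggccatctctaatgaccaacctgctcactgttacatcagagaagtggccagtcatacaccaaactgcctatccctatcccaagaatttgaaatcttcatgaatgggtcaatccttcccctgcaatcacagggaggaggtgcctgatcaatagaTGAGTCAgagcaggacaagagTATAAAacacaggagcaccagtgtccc
Flg (chr3:93273296-93273545, + strand): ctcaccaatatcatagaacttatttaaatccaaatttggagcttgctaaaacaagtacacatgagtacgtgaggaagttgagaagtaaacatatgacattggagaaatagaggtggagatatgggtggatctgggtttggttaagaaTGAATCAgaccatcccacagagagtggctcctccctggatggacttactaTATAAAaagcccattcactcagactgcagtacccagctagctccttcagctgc
Lce1m (chr3:93019062-93019311, - strand): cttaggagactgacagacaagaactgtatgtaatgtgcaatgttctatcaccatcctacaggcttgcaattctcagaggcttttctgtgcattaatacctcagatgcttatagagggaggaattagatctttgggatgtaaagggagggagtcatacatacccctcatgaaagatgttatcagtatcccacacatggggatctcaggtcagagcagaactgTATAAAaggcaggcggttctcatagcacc
Sprr2d (chr3:92338890-92339139, + strand): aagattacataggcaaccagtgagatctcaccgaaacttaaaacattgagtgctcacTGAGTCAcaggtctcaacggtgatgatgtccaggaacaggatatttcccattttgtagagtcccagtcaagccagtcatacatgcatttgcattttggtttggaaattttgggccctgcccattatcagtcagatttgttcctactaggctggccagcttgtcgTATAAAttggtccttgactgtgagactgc
Lce3c (chr3:92944236-92944485, + strand): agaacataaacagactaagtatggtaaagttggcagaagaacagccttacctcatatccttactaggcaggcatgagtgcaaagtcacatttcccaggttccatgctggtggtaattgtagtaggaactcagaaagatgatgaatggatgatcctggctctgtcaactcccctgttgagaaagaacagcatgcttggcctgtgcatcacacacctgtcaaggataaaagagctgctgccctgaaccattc

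In Lor the TATAAA match starts 27 bases before the annotated start and the AP-1 letters 48 bases before it. Flg carries TATAAA at 53 bases and the AP-1 letters at 103 bases. Lce1m has TATAAA at 29 bases and no AP-1 match, Sprr2d has TATAAA at 29 and the AP-1 letters at 193 bases, and Lce3c has neither. RefSeq windows that reach from 250 bases before to 50 bases after a start were at hand for 42 of the 48 members. TATAAA on either strand was found in 20 of the 42 (47.6%) against 13.6% of all 32817 windows, and it began 40 to 20 bases before the start, on the gene's strand, in 16 (38.1%) against 2% of all. The AP-1 letters were found in 15 of the 42 (35.7%) against 7.81% of all windows. They divided the families: 9 of 13 Sprr windows held them, 4 of 6 S100-fused windows and both of Lor and Ivl, but 0 of 13 Lce1 and 0 of 6 Lce3 windows. The letters GGGNGTG, bound by Klf4, were in 4 (9.52%) against 29.1% of all, AACCNGTT, bound by Grainyhead-like proteins, in 1 (2.38%) against 2.08%, and GACCACCCA, bound by Gli proteins, in 0 against 0.253%. In the sequences above no match overlapped another. Members of a family share sequence (Sprr2d and Sprr2e windows were identical at 88.0% of positions), so the windows are not independent, and a match says only that the letters are there. The models of Sprr4 and Tchh start at ATG, so their windows lie before a start codon and not before a transcript's start.

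Envelope genes were higher in the vismodegib nests than in either untreated group. Summed over the 48 members, the level was 1683 ± 574 CPM in the vismodegib libraries against 80.5 ± 48.5 CPM in the Ki67-positive and 111 ± 172 CPM in the Ki67-negative libraries (SD, n = 5 each). The lowest vismodegib library held 920 CPM and the highest untreated library, Ki67-negative library 4, held 414 CPM, so the groups did not overlap. Without that library the Ki67-negative mean was 35.6 CPM. Of the 48 members, 27 had enough counts to be tested, 18 had counts but failed the filter on low counts, and Lelp1, Sprr2a1 and Sprr3 were at 0 counts in all 15 libraries. A member was called at an adjusted p under 0.05 in edgeR's quasi-likelihood test over all 17282 genes tested.

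Against Ki67-positive nests, 22 of the 27 tested members were called higher, 0 lower and 5 were not called. Of all genes tested, 12.6% were called higher, 13.4% lower and 26% in either direction. All 5 vismodegib libraries lay above all 5 Ki67-positive libraries for 21 of the 27, against 10.2% of all genes. The median log2 fold change of the tested members was 5.43 (5.29 with the 4 members that had 3 or fewer counts in a group set to the limit those counts allow), and that of all genes tested was -0.02. A member that passes the filter only through its counts in the treated group had to differ, so these counts describe the 27 and not the 48. On the untreated libraries alone, 7 members pass the filter (Flg, Ivl, Kprp, Pglyrp3, Rptn, Sprr1a and Tchh), and of these 4, Flg, Ivl, Kprp and Sprr1a, were called higher in both treatment comparisons.

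Against Ki67-negative nests, 22 were again called higher, 0 lower and 5 not called, where 15.4% of all genes were called higher, 16.5% lower and 31.9% in either direction. The libraries did not overlap for 20 of the 27, against 10.4% of all genes, and the median log2 fold change was 5.79 (5.36 with 9 such members at their limit) against -0.03 for all genes. Both comparisons use the same 5 vismodegib libraries and are not independent. The 5 members not called, Pglyrp3, Sprr2d, Sprr1b, Rptn and Tchh, were the same in both.

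**Figure D1:**
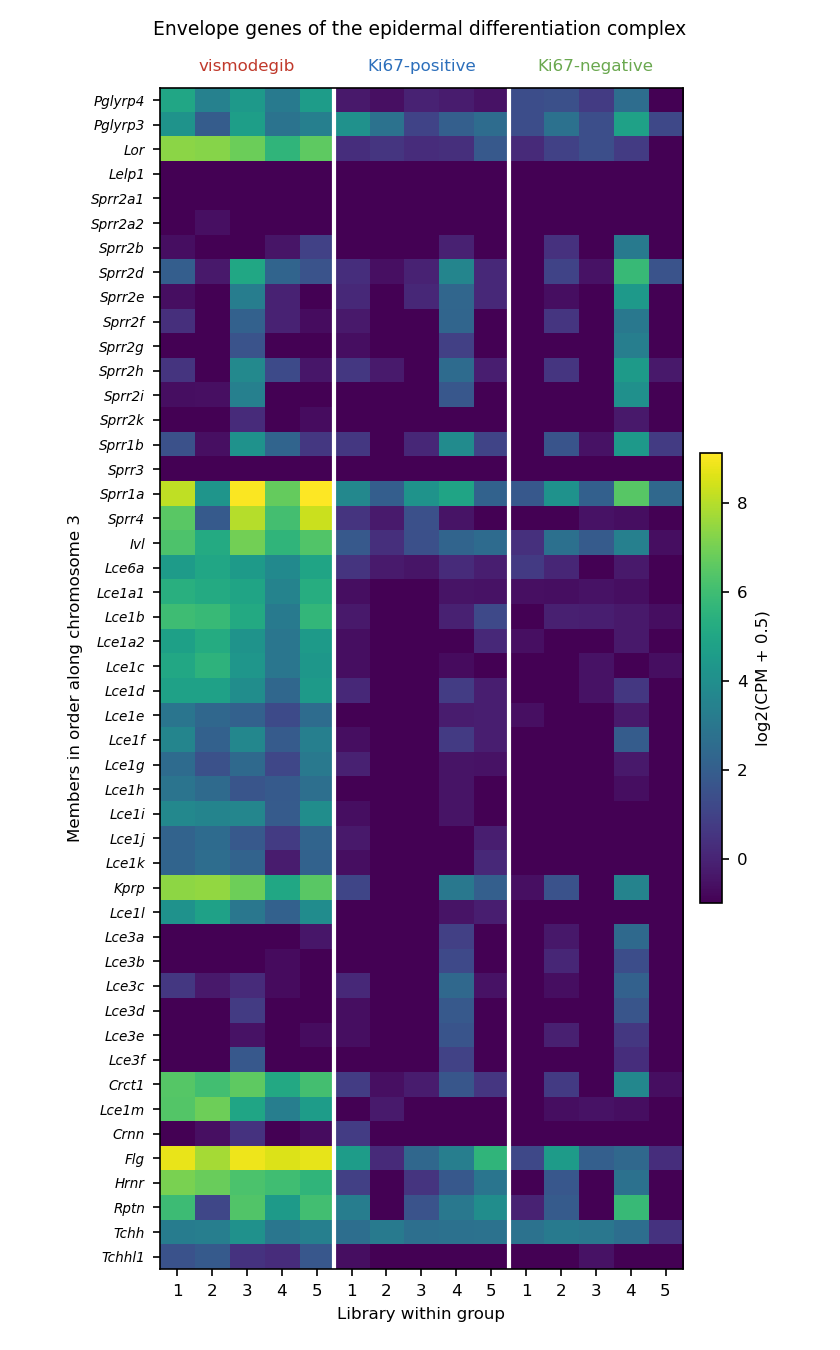
Level of each of the 48 members (rows, in order along chromosome 3) in each of the 15 libraries (columns, grouped), as log2(CPM + 0.5) on the colour scale. The members called higher are mostly bright in the vismodegib libraries and dark in the untreated ones, while several Sprr2 and Lce3 rows stand out in Ki67-positive library 4 and Ki67-negative library 4, and some Sprr2 rows in vismodegib library 3.

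Lor encodes loricrin, the bulk protein of the mature envelope. Its level was 162, 157, 113, 48.5 and 96.0 CPM in vismodegib libraries 1 to 5. It was 0.768, 0.965, 0.713, 0.800 and 3.03 CPM in the Ki67-positive libraries and 0.645, 1.42, 2.22, 1.21 and 0 CPM in the Ki67-negative libraries. The lowest treated library lay above every untreated one, and the counts behind these values were 4316 in the treated group against 39 and 33. The log2 fold change was 6.61 ± 0.529 (SE, adjusted p = 2.49e-07, edgeR) against Ki67-positive and 6.74 ± 0.537 (adjusted p = 2.23e-07) against Ki67-negative nests.

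Ivl encodes involucrin, the scaffold on which the envelope is begun. It stood at 78.0, 35.7, 125, 48.4 and 82.1 CPM in the vismodegib libraries, at 3.07, 0.804, 2.26, 4.23 and 5.26 CPM in the Ki67-positive libraries and at 0.807, 6.23, 3.23, 9.97 and 0.150 CPM in the Ki67-negative libraries. The groups did not overlap, although involucrin was less near 0 in untreated nests than loricrin. Its log2 fold changes were 4.57 ± 0.696 (SE, adjusted p = 0.000189, edgeR) and 4.16 ± 0.678 (adjusted p = 0.000296).

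Among the S100-fused proteins, Flg and Hrnr rose and Rptn and Tchh were not called. Flg, which encodes profilaggrin, was at 439, 215, 464, 379 and 423 CPM in the vismodegib libraries, the highest mean of any member by CPM. In the Ki67-positive libraries it was at 23.5, 0.643, 4.75, 9.60 and 48.7 CPM and in the Ki67-negative libraries at 1.77, 22.8, 3.63, 4.83 and 0.748 CPM. The untreated libraries spread widely, and the highest of them still lay under the lowest treated one. On the log2 scale the fold changes were 4.49 ± 0.945 (SE, adjusted p = 0.00329, edgeR) and 5.80 ± 1.02 (adjusted p = 0.000823).

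Hrnr encodes hornerin, a filaggrin-like repeat protein. It was at 136, 112, 75.7, 64.5 and 48.98 CPM in the vismodegib libraries and at no more than 7.08 CPM in any Ki67-positive and 6.34 CPM in any Ki67-negative library. It had no count in 1 Ki67-positive and 3 Ki67-negative libraries. The log2 fold changes were 5.21 ± 0.940 (SE, adjusted p = 0.000923, edgeR) and 5.51 ± 0.960 (adjusted p = 0.000633). Long repeats make these genes hard to count: 79.2% of the stretches of 50 bases in the longest Flg transcript and 69.1% in that of Hrnr recur within the transcript, and whether uniquely aligned reads were lost there was not tested.

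Rptn encodes repetin and gave no clear order of groups. It was at 60.3, 1.74, 83.3, 22.5 and 65.5 CPM in the vismodegib libraries, at 9.21, 0, 2.50, 7.77 and 15.2 CPM in the Ki67-positive libraries and at 0.484, 3.26, 0, 55.4 and 0 CPM in the Ki67-negative libraries. Vismodegib library 2 lay among the untreated values and Ki67-negative library 4 among the treated ones. Differences on the log2 scale were 2.77 ± 1.43 (SE, adjusted p = 0.179, edgeR) and 1.97 ± 1.37 (adjusted p = 0.298). Without Ki67-negative library 4 the second was 5.51 (adjusted p = 0.00782), which passes the threshold.

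Tchh encodes trichohyalin, which belongs to the inner root sheath of the hair follicle. It was at 10.5 ± 3.64 CPM in vismodegib, 6.63 ± 1.09 CPM in Ki67-positive and 5.85 ± 2.94 CPM in Ki67-negative libraries (SD, n = 5 each), with log2 fold changes of 0.66 (adjusted p = 0.238, edgeR) and 0.84 (adjusted p = 0.115). Its neighbour Tchhl1 failed the filter, with 73 counts in the vismodegib group and 1 count in each untreated group. Those counts give a ratio of 65.6 against Ki67-positive (95% interval 11.4 to 2626, counting error only) and of 59.3 against Ki67-negative nests (10.3 to 2375). Crnn, for cornulin, had 11, 8 and 0 counts.

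The Lce1 group gave the largest ratio of all families. These are small cysteine- and glycine-rich proteins that are added late to the envelope. Summed over its 14 genes, the level was 345, 386, 198, 67.0 and 246 CPM in the vismodegib libraries, 2.61, 0.322, 0, 4.46 and 5.46 CPM in the Ki67-positive libraries and 0.484, 0.708, 1.21, 6.04 and 0.299 CPM in the Ki67-negative libraries. The mean was 96.6 times that of the Ki67-positive group and 142 times that of the Ki67-negative group, where library 4 held most of the reads: without it the ratio was 367. Of the 14 genes 12 were tested and called higher in both comparisons, but none of them passes the filter on the untreated libraries alone. They passed through their treated counts and had to differ, so nothing is read from the number called, and the levels and ratios describe the group. The other 2, Lce1j and Lce1k, had 135 and 140 counts in the treated group, 4 each in the Ki67-positive and 0 in the Ki67-negative group, which is at least 36.6-fold and 37.9-fold higher than the Ki67-negative group at a floor of 3 counts over that group.

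Within the group, Lce1m went from near absence to 85.5, 119, 30.4, 9.48 and 23.4 CPM. It had 1872 counts in the vismodegib libraries against 2 in the Ki67-positive and 3 in the Ki67-negative libraries, ratios of 841 (95% interval 232 to 6950, counting error only) and 507 (173 to 2462). Lce1c had 918 counts against 2 and 2. Lce1i and Lce1l had no count in any Ki67-negative library and were at least 112-fold and 136-fold higher in the treated group at the same floor. For genes this close to 0 the fitted fold change depends on the prior count, so the count ratios are given in its place.

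Lce1a1 and Lce1a2 were at 31.2 ± 12.2 and 22.2 ± 10.9 CPM in the vismodegib libraries (SD, n = 5 each) and at most 0.607 CPM in any untreated library. Lce1b, the highest of the group by CPM apart from Lce1m, was at 62.1, 56.5, 35.03, 8.27 and 50.8 CPM. Vismodegib library 4 was the lowest of its group for each of these genes, and for Lce1b it was 4.24 times under the next. Lce1f changed least, with log2 fold changes of 4.46 ± 1.15 (SE, adjusted p = 0.0081, edgeR) and 3.56 ± 1.07 (adjusted p = 0.0182), and was the only Lce1 gene tested whose libraries overlapped, in the second comparison: Ki67-negative library 4 held 3.32 CPM and vismodegib library 4 held 3.28 CPM. Between 72.9% and 100% of the 50-base stretches of an Lce1 transcript were unique to that gene, so the split of reads between these copies is less sure than their sum.

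The Lce3 genes lie between Lce1l and Crct1, in the middle of genes that rose, and none of the 6 passed the filter. Their summed level was 1.08, 0.316, 5.05, 0.243 and 0.393 CPM in the vismodegib libraries, 0.921, 0, 0, 15.3 and 0.202 CPM in the Ki67-positive libraries and 0, 1.42, 0, 15.6 and 0 CPM in the Ki67-negative libraries. Most reads thus came from 1 library in each group: library 3 of the treated and library 4 of either untreated group. Lce3a had 2 counts in the vismodegib group, 12 in the Ki67-positive and 35 in the Ki67-negative group, and Lce3b had 1, 16 and 18. Lce3c had 17, 48 and 27 counts, Lce3d 12, 28 and 18, and Lce3e 3, 24 and 10. Lce3f ran the other way with 30, 13 and 5, of which the treated counts came from library 3 alone. Lce3c to Lce3f share sequence, with 50.7% to 64.3% of their 50-base stretches unique, and some of their reads may have been discarded as not unique.

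**Figure D2:**
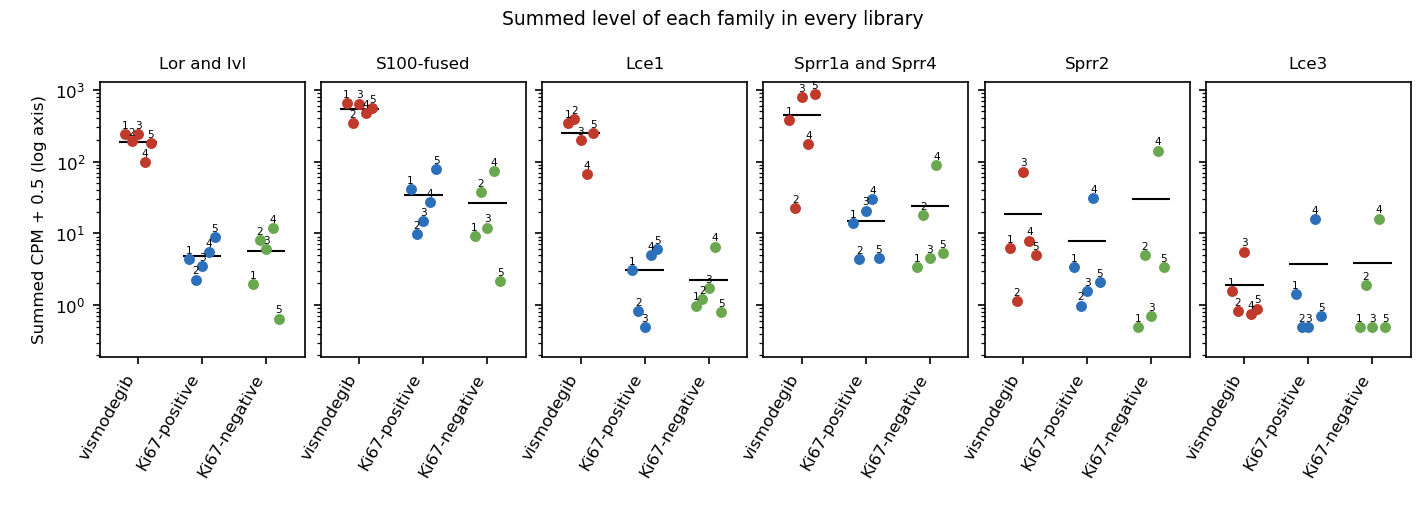
Summed CPM of each family plus 0.5 (log axis) in every library, with the library number above each point and a bar at the group mean. Lor with Ivl, the S100-fused genes and Lce1 lie higher in all 5 vismodegib libraries than in any untreated library, whereas Sprr2 and Lce3 overlap between groups.

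The small proline-rich genes split. Sprr1a and Sprr4 were called higher, Sprr1b and Sprr2d were tested and not called, and 10 of the 14 were not tested. Sprr1a, a cross-bridging protein that also marks stressed keratinocytes, was at 287, 18.98, 534, 107 and 555 CPM in the vismodegib libraries. It was at 12.6, 3.54, 17.9, 29.4 and 4.05 CPM in the Ki67-positive libraries and at 2.90, 17.6, 3.84, 89.7 and 4.79 CPM in the Ki67-negative libraries. Treated library 2 lay below Ki67-positive library 4 and Ki67-negative library 4, so the groups overlapped in both comparisons. The log2 fold changes were 4.45 ± 1.17 (SE, adjusted p = 0.0138, edgeR) and 3.65 ± 1.13 (adjusted p = 0.0261). The second call was lost when any 1 of vismodegib libraries 3 or 5 or Ki67-negative libraries 2, 3 or 5 was left out (adjusted p 0.0528 to 0.0566).

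Sprr4, a family member known for its induction in skin by ultraviolet light, was at 91.3, 3.16, 256, 68.7 and 313 CPM in the vismodegib libraries and at no more than 2.26 CPM in any Ki67-positive library. In the Ki67-negative group it had 2 counts over the 5 libraries, against 6150 in the treated group, a ratio of 2499 (95% interval 692 to 20642, counting error only). The log2 fold change against Ki67-positive nests was 7.47 ± 1.08 (SE, adjusted p = 0.00017, edgeR). With limma voom in place of edgeR neither call was made (adjusted p = 0.192 and 0.134), while the direction held.

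Sprr1b was at 2.31, 0.158, 17.5, 4.25 and 1.05 CPM in the vismodegib libraries, and reached 14.2 CPM in Ki67-positive library 4 and 20.8 CPM in Ki67-negative library 4. Its log2 fold changes were 0.52 ± 1.36 and 0.04 ± 1.35 (SE, adjusted p = 0.816 and 0.986, edgeR). Sprr2d was at 3.55, 0.316, 32.5, 4.25 and 2.49 CPM in the vismodegib libraries, at 0.768, 0.161, 0.475, 11.7 and 0.607 CPM in the Ki67-positive and at 0, 1.56, 0.202, 55.4 and 2.54 CPM in the Ki67-negative libraries. For both genes 1 library per group stood above the other 4, and the same 3 libraries did so. The log2 fold changes of Sprr2d were 1.61 ± 1.54 and -0.46 ± 1.47 (SE, adjusted p = 0.488 and 0.84). Without Ki67-negative library 4 the second became 2.95 (adjusted p = 0.126), and without vismodegib library 3 the first became -0.08 (adjusted p = 0.979).

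Of the other Sprr2 genes, Sprr2e, Sprr2f, Sprr2g, Sprr2h and Sprr2i were also highest in these 3 libraries within their groups, at lower levels than Sprr2d. Sprr2b was highest in vismodegib library 5 of the treated group (1.44 CPM) and at 0 in library 3. The sum of the 10 Sprr2 members was 5.70, 0.633, 72.0, 7.41 and 4.45 CPM in the vismodegib libraries, 2.92, 0.482, 1.07, 30.7 and 1.62 CPM in the Ki67-positive libraries and 0, 4.53, 0.202, 141 and 2.84 CPM in the Ki67-negative libraries. Sprr2e had 99, 52 and 143 counts in the vismodegib, Ki67-positive and Ki67-negative groups, Sprr2h 155, 58 and 158, and Sprr2i 104, 25 and 108. Sprr2b had 14, 4 and 60, Sprr2g 25, 13 and 63, Sprr2f 50, 41 and 58, and Sprr2k 8, 0 and 2. Sprr2a2 had 1 count in all and Sprr2a1 0, but these copies share over 92% of their 50-base stretches with each other, so uniquely aligned reads could not show them. Summed with the further copy Sprr2a3 they reached a mean of 0.583 CPM in the treated group.

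Kprp and Crct1, a proline-rich keratinocyte protein and a cysteine-rich one, and Lce6a also rose. Kprp was at 168, 177, 117, 32.3 and 90.8 CPM in the vismodegib libraries and at most 7.88 and 11.2 CPM in a Ki67-positive and a Ki67-negative library. Its log2 fold changes were 5.43 ± 1.14 and 5.36 ± 1.14 (SE, adjusted p = 0.0032 and 0.00308, edgeR). Crct1 was at 85.9, 66.3, 96.2, 33.9 and 68.8 CPM, with changes of 5.92 ± 1.05 and 4.64 ± 0.958 (adjusted p = 0.000804 and 0.00223). Lce6a was even across treated libraries at 24.01 ± 7.07 CPM (SD, n = 5), with changes of 5.49 ± 0.553 and 5.81 ± 0.572 (adjusted p = 1.39e-06 and 9.72e-07). The lncRNA Gm35639 (chr3:92573821-92646547) spans the whole of Lce6a, so without strand part of the reads of Lce6a cannot be told from its own. It overlaps only the edge of Lce1a1 (chr3:92646532-92648307), where shared reads cannot be told apart either. Exons were not compared.

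The pair of peptidoglycan recognition genes, which encode secreted antibacterial proteins, differed from each other. Pglyrp4 was at 31.4, 10.3, 21.9, 8.51 and 23.7 CPM in the vismodegib libraries, between 0.161 and 0.475 CPM in the Ki67-positive and between 0 and 5.59 CPM in the Ki67-negative libraries. It changed by 5.87 ± 0.743 and 3.08 ± 0.604 on the log2 scale (SE, adjusted p = 1.78e-05 and 0.000864, edgeR). Pglyrp3 was at 12.5 ± 8.69, 6.83 ± 5.94 and 7.93 ± 10.9 CPM (SD, n = 5 each), with changes of 0.88 and 0.65 (adjusted p = 0.449 and 0.557). Without Ki67-negative library 4 the second was 1.98 (adjusted p = 0.032).

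**Figure D3:**
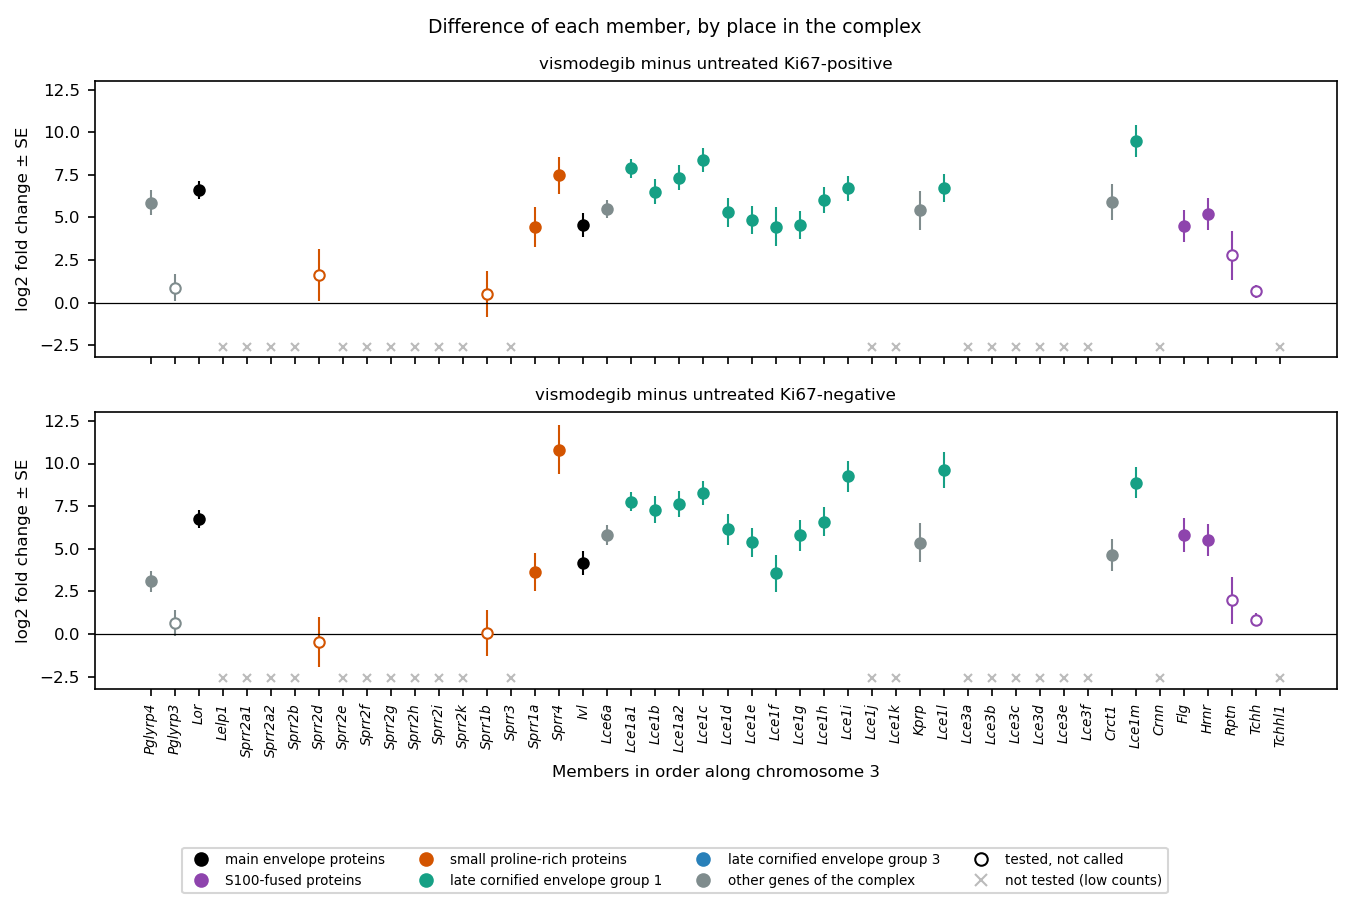
Log2 fold change with its SE for each tested member, in order along chromosome 3 (filled, called at an adjusted p under 0.05; open, not called; crosses, not tested for low counts), against Ki67-positive (top) and Ki67-negative nests (bottom). Filled points run from Sprr1a to Hrnr, where most members could be tested only through their treated counts. Lor and Pglyrp4, further left, are also filled. The crosses gather over the Sprr2 and Lce3 blocks. Values of genes near 0 in a group depend on the prior count.

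By place, the 20 members tested from Sprr1a to Hrnr were called in both comparisons, across a stretch that also holds the untested Lce1j, Lce1k, Crnn and Lce3 genes. Only Sprr1a, Ivl, Kprp and Flg of these pass the filter on the untreated libraries alone, and the rest had to differ to be tested, so nothing is read from the length of this run. To its left lie the Sprr2 genes and Sprr1b, of which the 2 tested were not called, and beyond these Lor was called. Further left, Pglyrp3 was not called and Pglyrp4 was called. To its right Rptn and Tchh were not called. Copies in a row share sequence and were counted from the same libraries, so they are not independent observations either.

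Between the untreated groups, 0 of the 27 tested members were called higher or lower in Ki67-negative against Ki67-positive nests (edgeR), where 0.174% of all genes were called, all 30 of them lower. At an unadjusted p under 0.05 there was 1 member, Pglyrp4, named after its values were seen, with a log2 fold change of 2.79 ± 0.755 (SE, adjusted p = 0.305). DESeq2 called this gene (adjusted p = 0.0217), and limma voom called 0. The log2 fold changes of the tested members ran from -3.35 to 2.79 with a median of -0.13, against 0.01 for all genes. This comparison is also the test of whether the 2 treatment differences differ, and it can show little for most members. Of the 27, 20 do not pass the filter on the untreated libraries alone, and most of these had few counts in both untreated groups. Sprr2d had 115 counts in the Ki67-positive and 396 in the Ki67-negative group, and Sprr1b had 144 and 165. Library 4 of each group held most of them. For the 7 that pass the filter on the untreated libraries alone, the differences ran from -1.33 to 0.81 in a fit of these 10 libraries, and 0 were called (adjusted p 0.906 to 0.996, edgeR). Standard errors over the 27 were 0.401 to 2.26, which leaves wide limits.

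Among themselves the treated libraries did not rank alike for every family. The Lce1 sum was highest in library 2, at 1.55 times the mean of the 5, and lowest in library 4, at 0.270 times. Sprr1a and Sprr4 together were at 378, 22.1, 790, 175 and 868 CPM in libraries 1 to 5, so that library 2 stood at only 0.0495 times their mean. Flg and Hrnr together stayed between 0.694 and 1.22 times their mean in all 5. The library with the most late envelope RNA of the Lce1 kind was thus the one with the least Sprr1a and Sprr4.

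Library 2 also stood apart on several lists of markers. The summed infundibulum and isthmus markers were at 2579 CPM there, against 4488 to 6611 CPM in the other treated libraries, and the sebaceous markers were at 295 CPM against 657 to 5218 CPM. Scd1, the sebaceous marker of highest level, was at 122 CPM in library 2 and at 384 to 3741 CPM in the others. Its fibroblast markers summed to 589 CPM against 1521 to 3898 CPM, the filaggrin and loricrin processing genes to 945 CPM against 1715 to 2356 CPM, and the endothelial markers to 59.5 CPM against 28.05 to 37.98 CPM. Envelope partners outside the complex summed to 8791 CPM in library 2 against 10218 to 11971 CPM in the other treated libraries. Suprabasal keratins and corneodesmosome genes summed to 3695 CPM against 4274 to 4557 CPM. Regulators of the complex, at 4151 CPM, lay within the range of the others (3725 to 4167 CPM). The part of these lists in the level of Sprr1a and Sprr4 was not tested. Without library 2, 22 members were called in either comparison.

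**Figure D4:**
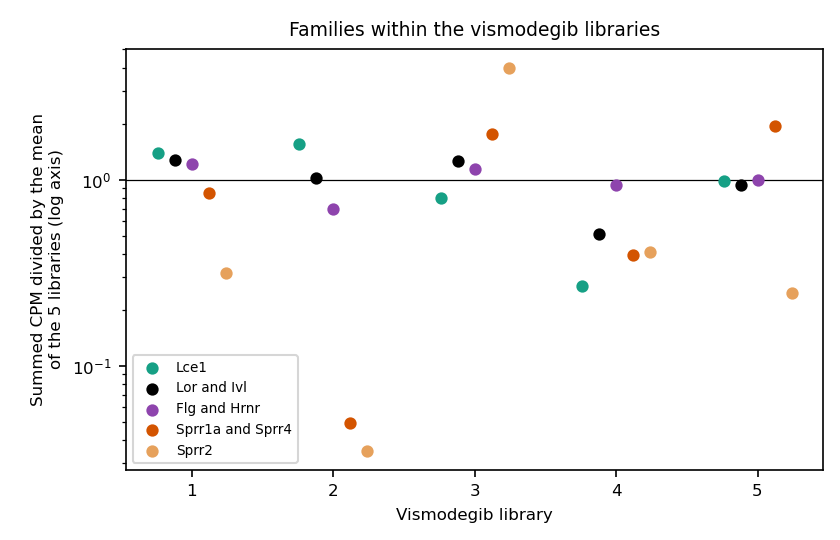
Summed CPM of 5 families in each vismodegib library divided by the mean of the 5 libraries (log axis; the line marks a ratio of 1). In library 2 the Lce1 point is the highest and the Sprr1a with Sprr4 and Sprr2 points lie far under the line, at 0.0495 and 0.0351.

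On the deposited values scaled per length (RPKM adjusted by the authors' size factor, which allow levels of different genes to be compared), Sprr1a was the highest member with a full gene model in the treated group at 104 ± 83.7 (SD, n = 5). Next came Crct1 at 26.7 ± 8.92, Flg at 20.2 ± 5.23, Lce1b at 17.9 ± 9.07, Lor at 17.7 ± 7.08, Lce1m at 16.6 ± 14.4, Lce1a1 at 12.04 ± 4.64, Kprp at 11.7 ± 5.89 and Ivl at 9.65 ± 4.505. From Crct1 to Ivl each differed from its neighbour in this order by less than the larger of their SDs. Sprr4 read 173 ± 155, but its annotated model has 231 bases and starts at ATG, and the values imply a length 3.42 times shorter than that of Sprr1a, so its place is not comparable. For Flg the values imply a length 6.57 times that of Sprr1a. The longest Flg transcript in GENCODE M21 has 14497 bases against 806 for Sprr1a, so the place of Flg is unsure as well. In the Ki67-positive group Sprr1a led at 4.70 and in the Ki67-negative group at 8.28, where Sprr2d followed at 4.83. Library 4 carried both of these: without it Sprr1a was at 2.56 and Sprr2d at 0.442.

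The genes that work with the complex from elsewhere in the genome were read from lists, whose counts stand beside 12.6% of all genes called higher and 13.4% lower against Ki67-positive nests, and 15.4% and 16.5% against Ki67-negative nests. Here and in the marker lists below, a gene that passes the filter only through its treated counts had to differ. How many such genes each list holds was not counted. Of 19 tested envelope partners outside the complex, 13 were called higher and 0 lower against Ki67-positive nests and 15 and 0 against Ki67-negative nests, with median log2 fold changes of 1.87 and 1.80 beside -0.02 and -0.03 for all genes. Scel, which encodes the envelope precursor sciellin, rose by 2.03 ± 0.160 on the log2 scale, Ppl (periplakin) by 1.60 ± 0.152, Dsp (desmoplakin) by 1.33 ± 0.147, Sbsn (suprabasin) by 1.87 ± 0.264 and Anxa1 (annexin A1) by 1.04 ± 0.205 (SE, Ki67-positive comparison). Of these, Scel was already at 239 to 382 CPM and Dsp at 1407 to 1802 CPM in the Ki67-positive nests, whereas the Lce1 genes were near 0 there. Other partners called higher were low in those nests too, such as Tgm3 with a mean of 1.10 CPM and Tgm1 with 3.91 CPM.

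Suprabasal keratins and corneodesmosome genes had 8 of 9 tested members called higher and 0 lower in either comparison. Of these, Krt78 was at most 0.238 CPM in any Ki67-positive and 0.755 CPM in any Ki67-negative library. It was tested only through its treated counts, so nothing is read from its call. Krt77 and Krt10, keratins of the layers above the basal one, rose by 7.64 ± 0.521 and 3.62 ± 0.339 on the log2 scale against Ki67-positive nests, and Dsg1a, a desmosomal cadherin, by 1.94 ± 0.264. Genes that process filaggrin and loricrin had 7 of 12 tested called higher and 0 lower in either comparison. Asprv1, a protease that cuts profilaggrin, rose by 2.48 ± 0.324, Hal, which turns the histidine of filaggrin into a water-holding acid, by 4.04 ± 0.579, and Spink5, an inhibitor of the kallikreins that shed corneocytes, by 4.79 ± 0.707. The arginine deiminases Padi1 and Padi3, which act on filaggrin, had too few counts to be tested.

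Regulators of the complex moved in both directions, with 9 of 21 called higher and 2 lower against Ki67-positive and 9 higher and 4 lower against Ki67-negative nests. The numbers lower lie near the share of all genes called lower. Klf4, a factor for barrier formation, rose by 1.59 ± 0.268 and 1.5 ± 0.267 on the log2 scale, Zfp750 by 1.73 ± 0.232 and 2.06 ± 0.235, Grhl3 by 1.81 ± 0.417 and 2.05 ± 0.422, Ovol1 by 2.18 ± 0.482 and 2.41 ± 0.490, and Cebpa by 1.46 ± 0.249 and 1.86 ± 0.253. Trp63, which encodes the master factor of stratified epithelium p63, was at 1424 ± 103 CPM in the vismodegib libraries, with changes of 0.14 and 0.04 (adjusted p = 0.464 and 0.816, edgeR). Prdm1, which encodes the repressor Blimp1, fell by 2.05 and 2.22 on the log2 scale, and Jun, an AP-1 subunit, fell by 0.97 and 0.92.

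**Figure D5:**
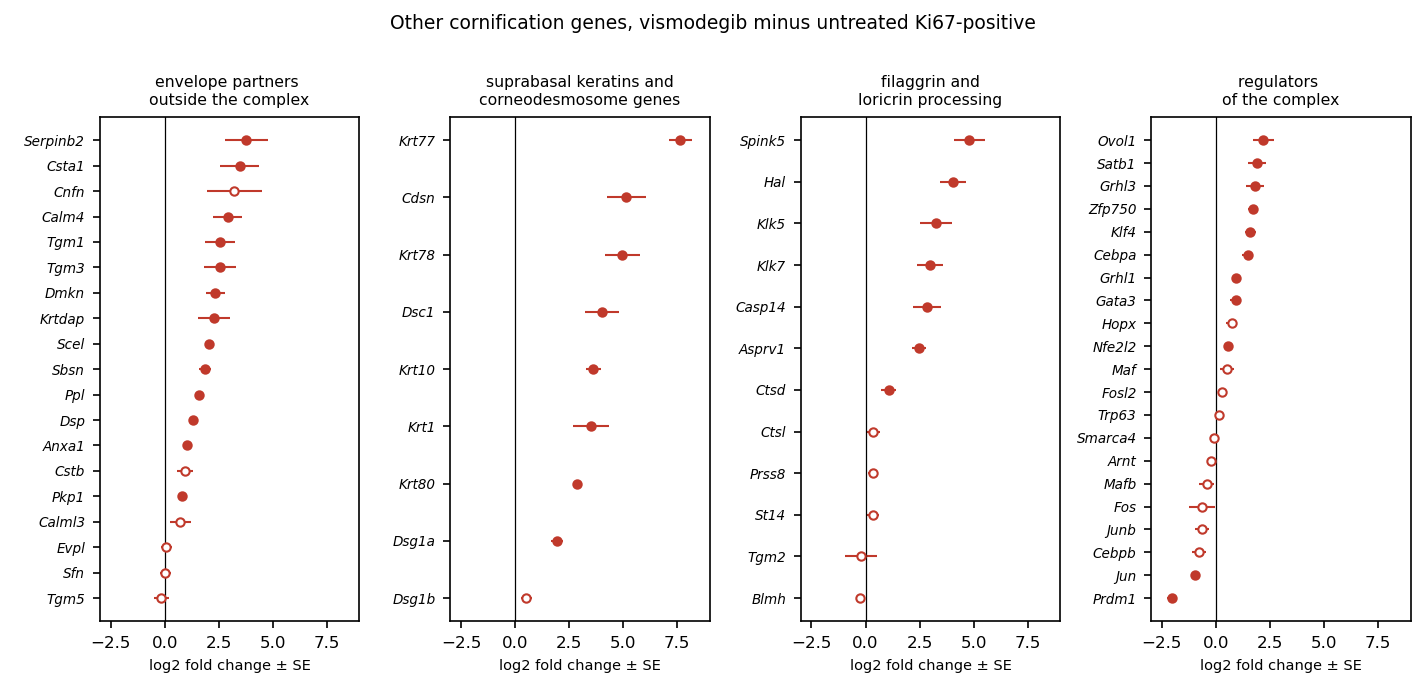
Log2 fold change with its SE for the tested genes of 4 cornification lists, vismodegib against Ki67-positive nests (filled, adjusted p under 0.05; open, not called). Suprabasal keratins reach 7.64 (Krt77), envelope partners centre on a median of 1.87, and the regulators run from -2.05 (Prdm1) to 2.18 (Ovol1).

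Several marker lists of other cells differed with the treatment and others did not beyond the share of all genes called (12.6% higher and 13.4% lower, and 15.4% and 16.5%), and their part in the envelope genes was not tested. Of 10 Langerhans and dendritic cell markers, 10 and 9 were called higher in the 2 comparisons, and their sums over a library ran from 831 to 2548 CPM after vismodegib, from 121 to 530 CPM in the Ki67-positive nests and from 157 to 501 CPM in the Ki67-negative nests. Infundibulum and isthmus markers were higher in 6 of 9 in either comparison (1 lower against Ki67-positive nests), with sums of 2579 to 6611, 3188 to 3482 and 2008 to 3510 CPM. Sebaceous markers were higher in 2 and 3 of 11, and their sums of 295 to 5218, 330 to 1301 and 241 to 1796 CPM overlapped; these counts lie not far above the share of all genes. Basal and tumour nest markers rose in 5 and fell in 4 and 3 of 12, with sums of 14523 to 18015, 12222 to 13636 and 11282 to 12939 CPM. Fibroblast markers were lower in 3 of 9 in either comparison, with sums of 589 to 3898, 1931 to 6519 and 2846 to 5256 CPM. Inner root sheath and hair shaft markers, with Krt34 at 0 throughout, summed to at most 50.02 CPM in any library. Of the 3 tested, 0 and 1 were called higher, the 1 being Krt25 with a log2 fold change of 3.90 against Ki67-negative nests (adjusted p = 0.0468, edgeR). T cell markers were higher in 4 and 3 of 7 (1 lower against Ki67-negative nests), with sums of 139 to 218, 116 to 221 and 131 to 224 CPM. Melanocyte markers were lower in 5 and 3 of 8 and higher in 0 and 1, endothelial markers were called in 0 of 6, and the only skeletal muscle marker tested was higher against Ki67-negative nests alone, with the list's sum at 125 CPM in vismodegib library 1 and at most 6.83 CPM in any other library.

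For the libraries that carried Sprr2 and Lce3, the same lists gave the following. Ki67-negative library 4 had the highest sums of its group for envelope partners (5076 CPM), filaggrin and loricrin processing (968 CPM), regulators (4130 CPM), infundibulum and isthmus (3510 CPM), inner root sheath (19.9 CPM) and endothelium (85 CPM). Ki67-positive library 4 had the highest fibroblast sum (6519 CPM), T cell sum (221 CPM), melanocyte sum (1652 CPM) and suprabasal keratin sum (604 CPM) of its group. The low skeletal muscle sum was also highest of its group in both, at 4.98 CPM in the Ki67-negative library (others up to 3.84 CPM). In the Ki67-positive library it was 6.74 CPM (others up to 6.27 CPM). Vismodegib library 3 had the highest sums of its group for envelope partners (11971 CPM), processing (2356 CPM), regulators (4167 CPM), basal and tumour nest markers (18015 CPM) and infundibulum and isthmus markers (6611 CPM). No list summed here was highest in all 3 of these libraries, and the part of any of them was not tested.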

How the data were processed

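Reads were aligned with GSNAP to GRCm38, per the submitters' processing notes. The deposited counts are reads aligned uniquely to each gene model and, per the file headers, the deposited RPKM values were corrected by each library's size factor. The sources used here name no aligner version, annotation release or strand setting. Reads of overlapping or antisense genes therefore cannot be separated. The RPKM values were used only to compare levels between genes. Of 36528 identifiers, 31049 (85.0%) matched a symbol, and all 48 members did. Counts were scaled by TMM (factors 0.937 to 1.05), filtered with filterByExpr (minimum count 10, minimum total 15) and tested two-sided with the quasi-likelihood test of edgeR 4.0.16 in R 4.3.3, with all 15 libraries in 1 fit (12 residual degrees of freedom) and Benjamini-Hochberg adjustment over 17282 genes. CPM values use TMM-adjusted library sizes. SE is the fold change divided by the square root of F. Intervals on count ratios are exact binomial intervals at 95% and, like the floor of 3 counts, cover counting error only. DESeq2 1.42.0, limma voom 3.58.1, other scalings and filters, a split by Xist and leaving out each library were alternatives. No 2 libraries of a group were near duplicates. Motifs and 50-base stretches were searched in RefSeq windows (GRCm38.p6) and GENCODE M21 transcripts. Scripts were tested on simulated counts.

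Any tested member may be named. From other cornification lists, up to 5 called genes with the smallest adjusted p and 6 fixed regulators may be named, and from marker lists the 3 of highest level. Padi1, Padi3, Krt25, Krt34, Tgm1 and Tgm3 were named after their values were seen. Members and lists were chosen with earlier results of these data known.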

Additional observations from a re-analysis of the deposited data

Results flagged for a closer look

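Of 102 sets of 5 libraries screened (a tested member or family sum in a group), 14 had a library far from the other 4 by Dixon's criterion at 95%, on log2(CPM + 0.5). Chance alone gives this in about 1 in 20 sets of values that vary. That rate does not apply to 5 of the 14, where the other 4 libraries were all at 0 and any read sets a library apart. In the vismodegib group library 4 was low for 3 Lce1 genes: Lce1a1 at 10.9 CPM (others 29.4 to 41.2), Lce1b at 8.27 CPM (others 35.03 to 62.1) and Lce1i at 3.28 CPM (others 11.2 to 14.9). Flg was low in library 2 at 215 CPM (others 379 to 464).

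Among the untreated groups, Lor was high in Ki67-positive library 5 at 3.03 CPM (others up to 0.965) and Sprr2d in Ki67-positive library 4 at 11.7 CPM (others up to 0.768). Lce1f was seen only in library 4 of the Ki67-negative group, at 3.32 CPM. Tchh was high in Ki67-positive library 2 at 8.52 CPM (others 5.83 to 6.47) and low in Ki67-negative library 5 at 0.898 CPM (others 5.89 to 8.36), the library in which the fewest genes had a count (19669). The remaining cases rest on 1 or 2 reads: Lce1g at 0.302 and Lce1h at 0.151 CPM in Ki67-negative library 4, Lce1h at 0.229 CPM in Ki67-positive library 4, Lce1m at 0.322 CPM in Ki67-positive library 2, and Lce1a1 at 0 CPM in Ki67-negative library 5 (others 0.142 to 0.202).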

How the results depend on the processing

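No paired analysis was possible because the labels give no replicate numbers. Over 24 alternatives, of which 15 leave out 1 library each, 0 members were called lower after treatment. Members called higher were 22 to 24 (1 library left out) and 19 to 25 (other settings) against Ki67-positive nests and 21 to 26 and 18 to 25 against Ki67-negative nests, with 26 without Ki67-negative library 4. The lowest, 19 and 18, came from the 10 libraries with Xist at or below Ddx3y (2 treated), where 1380 and 1531 genes in all were called higher and 1435 and 1493 lower; fewer samples enter that fit. There Sprr1a (log2 fold change 4.37 and 3.53), Lce1f (4.19 and 2.94) and Kprp (4.63 and 4.13) lost their calls in both comparisons and Crct1 (3.89) in the second. Sprr1a also lost its second call with only the groups compared (adjusted p = 0.0577) and Lce1f with DESeq2 (adjusted p = 0.0622). Between untreated groups DESeq2 called 1 member and 5 genes higher and 81 lower, limma voom 15 lower, and 0 were lower with only those groups or with low Xist; leaving out 1 library gave 0 to 1 higher and 0 to 43 lower, with 0 without Ki67-positive library 4 or Ki67-negative libraries 3, 4 or 5, 2 without Ki67-positive library 5 and 12 without Ki67-negative library 2. Reversals were all of uncalled values. With 1 library left out, Sprr2d ran from -0.08 to 4.08 and from -2.16 to 2.95 in the first and second comparison and Sprr1b from -0.85 to 2.66 and from -1.33 to 2.3. Sprr2d turned negative in the first without vismodegib library 3 and positive in the second with voom (1.42) or without Ki67-negative library 4. Sprr1b turned negative with low Xist (-0.59 and -1.15), without vismodegib library 3 in both comparisons and, in the second, without Ki67-negative libraries 1, 2, 3 or 5 (-0.28 to -0.13). Pglyrp3 turned to -0.19 (low Xist, second comparison). The cause of these changes was not tested. The filter of at least 1 CPM in 5 libraries kept 18305 genes, more than the default. Depth limits the untreated levels, many of which rest on under 10 counts a group.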

Other observations

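A further 10 listed genes lie between Pglyrp3 and Tchhl1 and are not among the 48, and they were singled out after their values were seen. Of the 3 that could be tested, all were called higher in both comparisons (edgeR), where 12.6% and 15.4% of all genes were. Of these, 2310050C09Rik and Smcp had too few untreated counts to pass the filter without their treated ones. They had to differ to be tested, so nothing is read from the number called. The lncRNA Gm35639 had 1865 counts in the vismodegib group against 73 and 27, with log2 fold changes of 4.47 and 5.79 (adjusted p = 2.11e-07 and 3.95e-08). The protein-coding gene 2310050C09Rik had 1306 counts against 19 and 10, with changes of 5.92 and 6.77 (adjusted p = 0.000106 and 5.35e-05). Smcp, known for its protein in the sperm midpiece, had 225 counts against 19 and 1. Gm35639 spans Smcp and the member Lce6a and overlaps only the edge of Lce1a1, and without strand reads they share cannot be told apart. Of the untested genes, Prr9 had 98 counts against 14 and 11 and Sprr2j-ps, a pseudogene inside the Sprr2 block, had 6 against 19 and 12.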
